A study of Mus musculus with 12 samples.

Results

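The 10 genes described here are encoded by the mouse mitochondrial chromosome and make subunits of the respiratory chain and of ATP synthase. They were taken by symbol from a count table of 45777 genes, as the table writes them: ND1, ND2, ND4, ND5 and ND6 of complex I, CYTB of complex III, COX1, COX2 and COX3 of complex IV, and ATP6 of complex V. All 10 were found, and all 10 passed the filter on low counts that left 17885 genes for testing. ATP8, ND3 and ND4L, the other 3 protein-coding genes of this chromosome, were not members and are cited only where a result turns on them.

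RNA was measured in 12 libraries from tumours of the mouse lung cancer line 393P. The tumours grew under the skin of male 129S2/SvPasCrl mice that were 8 weeks old at injection. The 4 groups of 3 libraries were tumours of MAVS-reconstituted cells given the MPS1 inhibitor BAY-1217389, MAVS-reconstituted control tumours, MAVS-knockout tumours given the inhibitor and MAVS-knockout control tumours. The inhibitor was given at 5 mg/kg, 2 times daily for 2 days, with tumours taken on the next day, and the titles abbreviate the control treatment as Veh. All 4 groups share the 393P background, and the knockout titles carry the word Luc, which the sources used here do not explain. MAVS is the adaptor on the outer mitochondrial membrane that relays signals from cytosolic RNA sensors, and MPS1 (gene Ttk) is a kinase of the spindle checkpoint. The study asked which expression changes that follow a pulse of the inhibitor need MAVS. The genotypes are separate injected cell populations, so an effect of MAVS cannot be told apart from any other difference between the populations. The labels do not say that each library came from its own animal, so the p-values cover the spread among these libraries, which may be technical.

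Mitochondrial genes are transcribed from both strands of a small circular chromosome as long precursor RNAs, which are processed at the tRNAs that separate many of the genes. The proteins are made inside the organelle and join a much larger number of nuclear-encoded subunits in complexes I, III, IV and V. Complexes I, III and IV pump protons across the inner membrane, and ATP synthase uses that gradient.

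Positions are those of GRCm38, and each of these genes is a single exon. On the plus strand of the mitochondrial chromosome lie ND1 (gene ID 17716, chrM:2751-3707), ND2 (17717, chrM:3914-4951), COX1 (17708, chrM:5328-6872), COX2 (17709, chrM:7013-7696), ATP6 (17705, chrM:7927-8607), COX3 (17710, chrM:8607-9390), ND4 (17719, chrM:10167-11544), ND5 (17721, chrM:11742-13565) and CYTB (17711, chrM:14145-15288). ND6 (17722, chrM:13552-14070) is the one member on the minus strand. Lengths ran from 519 bases for ND6 to 1824 bases for ND5.

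Several of these genes share bases with a neighbour, and reads from a shared stretch could belong to either gene. The sequences are shown because the ratios of neighbouring genes given further on compare RNAs joined at these places. ATP8 and ATP6 lie on the same strand in different frames and share 43 bases, chrM:7927-7969. ND4L and ND4, also on the same strand, share 7 bases, chrM:10167-10173. The end of ND5 and the end of ND6 share 14 bases on opposite strands, chrM:13552-13565. The windows are the plus strand of GRCm38 as in GENCODE M21, 5′ to 3′, at chrM:7867-8029, chrM:10144-10196 and chrM:13529-13588, with the shared bases in capitals.
ATP8 and ATP6: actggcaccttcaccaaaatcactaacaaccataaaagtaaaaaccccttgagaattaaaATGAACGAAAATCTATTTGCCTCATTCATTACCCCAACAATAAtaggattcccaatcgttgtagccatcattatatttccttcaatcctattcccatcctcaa
ND4L and ND4: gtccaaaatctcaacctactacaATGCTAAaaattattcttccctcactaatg
ND5 and ND6: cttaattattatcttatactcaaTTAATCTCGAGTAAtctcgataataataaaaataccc
The capitals of the first and second lines begin with ATG, the start codon of the downstream gene, inside the end of the upstream one. How the deposited counts treated such shared reads, and whether they used strand, is not stated in the sources used here, so ATP6, ND4, ND5 and ND6 carry this uncertainty at their ends. Reads shared with copies of mitochondrial sequence in the nuclear chromosomes are likewise uncertain.

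Library totals ran from 52983715 to 69108411 counts, and 2 of the 12 libraries stood apart in the composition of their mitochondrial RNA. These were replicates 1 and 2 of the reconstituted tumours given the inhibitor. The ratio of the ATP8 count to the ATP6 count was 0.216, 0.249 and 0.430 in replicates 1, 2 and 3 of that group, against 0.485, 0.430 and 0.449 in reconstituted controls. In knockout tumours the ratio was 0.459, 0.391 and 0.404 with the inhibitor and 0.370, 0.404 and 0.419 in controls. ND4L over ND4 showed the same 2 libraries apart, at 0.0652 and 0.0727, with the other 10 libraries between 0.128 and 0.192. Each pair of genes is carried on 1 RNA, so these ratios compare the short upstream part of an RNA with its longer downstream part.

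**Figure D1:**
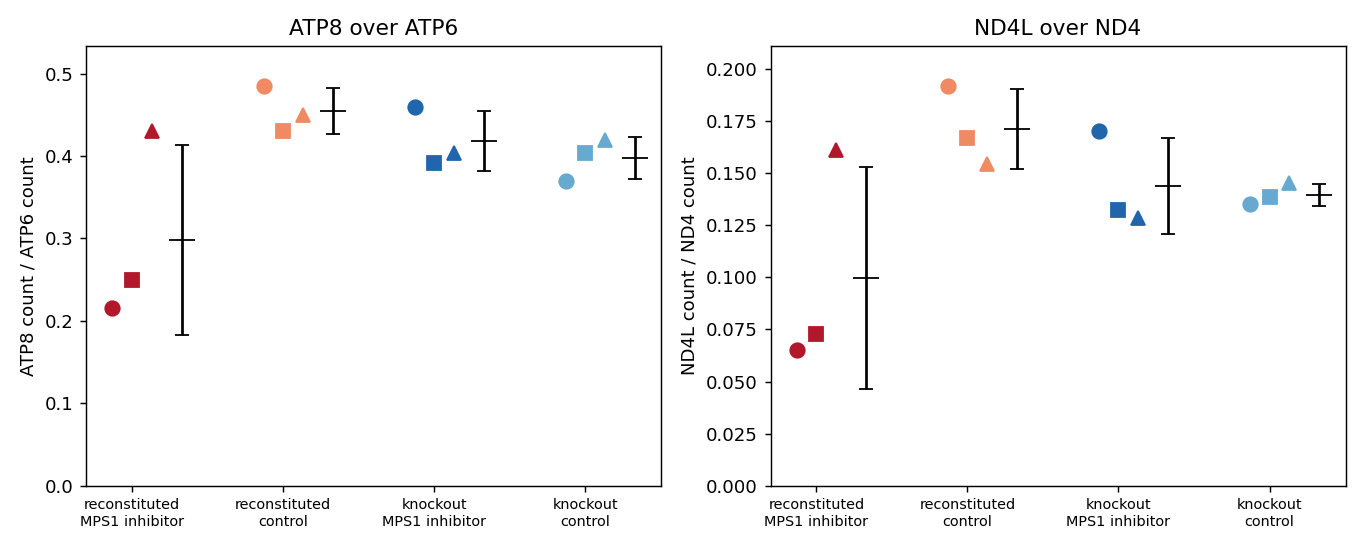
Ratio of the ATP8 count to the ATP6 count (left) and of the ND4L count to the ND4 count (right) in each of the 12 libraries; circles, squares and triangles are replicates 1, 2 and 3, and the black bars are the group mean ± SD (n = 3). Replicates 1 and 2 of the reconstituted tumours given the inhibitor, at 0.216 and 0.249 on the left and 0.0652 and 0.0727 on the right, lie below the other 10 libraries in both panels.

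The same 2 libraries differed in nuclear RNAs by length. Each gene's log2 level was centred on its mean over the libraries, and medians were taken over 1586 long and 1219 short genes. Long genes had transcripts of at least 6000 bases and short genes transcripts under 1500 bases. The long median minus the short median was -0.82, -0.49 and 0.18 in the 3 reconstituted inhibitor libraries. It was 0.28 to 0.51 in reconstituted controls, -0.15 to 0.37 in knockout tumours given the inhibitor and -0.25 to 0.09 in knockout controls. Summed skeletal muscle markers, 17 genes that were all detected, were highest in replicate 1 of the reconstituted inhibitor group at 3201 CPM (counts relative to the TMM-scaled library total), with the other 11 libraries at 4.09 to 910 CPM. Their part in the results below was not tested. The differences of the members and of the gene lists that rest on the reconstituted inhibitor group were also fitted without these 2, a choice made after the data were seen. The tumour cell identity was checked on epithelial markers, which summed to 6378 to 10107 CPM with all 6 detected. Of 5 keratinocyte and 5 adipocyte markers 4 each were detected, with Krt1 and Ucp1 at 0 in every library, and their sums were 6.99 to 14.4 CPM and 8.81 to 35.7 CPM.

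The 10 genes together held between 2.23% (replicate 2 of the reconstituted tumours given the inhibitor) and 4.6% (replicate 1 of the knockout controls) of all counts in a library. Their share was 2.82%, 2.23% and 3.23% in reconstituted tumours given the inhibitor (2.76% ± 0.506, SD, n = 3), against 3.74%, 4.26% and 3.50% in reconstituted controls (3.83% ± 0.388, SD, n = 3). These groups did not overlap. In knockout tumours the share was 3.30%, 3.66% and 2.75% with the inhibitor (3.24% ± 0.459, SD, n = 3), against 4.6%, 3.50% and 3.90% in controls (4.0% ± 0.555, SD, n = 3). Here the groups overlapped, since replicate 2 of the inhibitor group exceeded replicate 2 of the controls.

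The log2 ratio of the mean shares, inhibitor over control, was -0.47 in reconstituted and -0.31 in knockout tumours. The reconstituted over knockout ratio was -0.23 under the inhibitor and -0.06 in controls. Without the 2 libraries that stood apart the reconstituted inhibitor ratio was -0.24 and the reconstituted over knockout ratio under the inhibitor -0.0020. The share is a sum over chosen genes and was given no test. In pieces of whole tumour, fewer cells rich in mitochondria and less mitochondrial RNA per cell cannot be told apart.

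**Figure D2:**
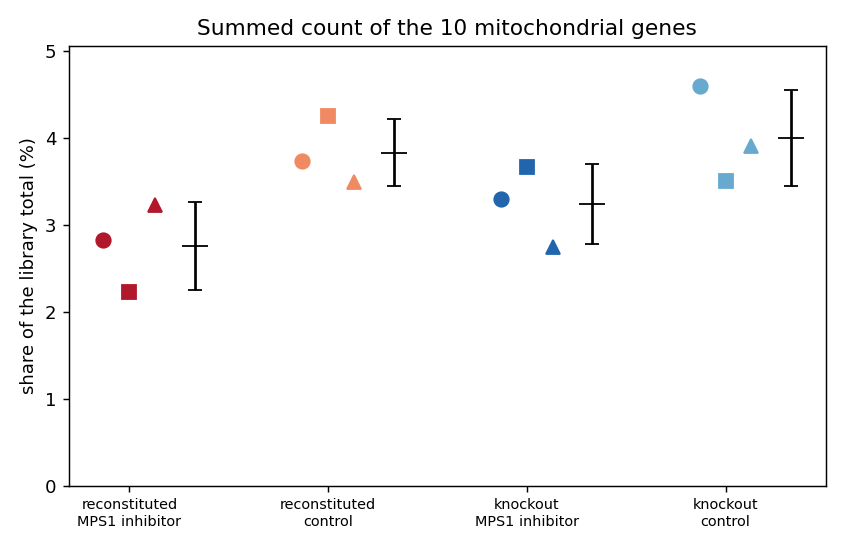
Share of the library's total count held by the 10 mitochondrial genes, in percent, for each library; circles, squares and triangles are replicates 1, 2 and 3, and the black bars are the group mean ± SD (n = 3). The reconstituted inhibitor libraries, at 2.23% to 3.23%, lie below the reconstituted controls, at 3.50% to 4.26%, while the knockout groups overlap.

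COX1, the catalytic core subunit of cytochrome c oxidase, was the most counted gene of the whole table in 10 of 12 libraries and ranked 2 and 3 in the other 2. It made up 33.5% to 38.6% of the counts of the 10 genes. Per kilobase of gene, its level averaged 8291 CPM over the 12 libraries. Then came COX2 at 4142, ND1 at 3783, ATP6 at 3716, CYTB at 3626, COX3 at 3090, ND4 at 1658, ND2 at 1506, ND5 at 1196 and ND6 at 348 CPM per kilobase.

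The order was not equally firm along its length. COX1 exceeded COX2, COX3 exceeded ND4, ND2 exceeded ND5 and ND5 exceeded ND6 in 12 of 12 libraries. Among COX2, ND1, ATP6, CYTB and COX3, the gene with the higher mean of 2 neighbours was the higher one in only 5 to 9 of 12 libraries. The order of these neighbours thus varied between libraries, and whether their levels differ was not tested. ND4 exceeded ND2 in 11 of 12 libraries. Levels of ND6 relate to a minus-strand RNA that, as known from human cells, carries no stable poly(A) tail, and the libraries were made from polyadenylated RNA. What that selection did to the ND6 level was not tested.

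**Figure D3:**
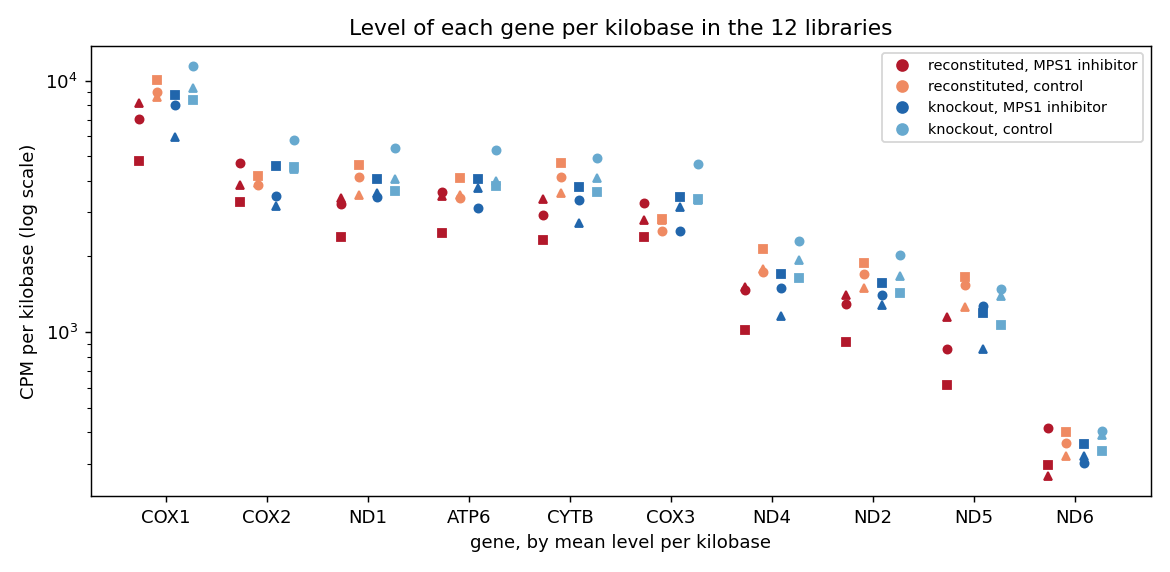
Level per kilobase of gene (CPM per kilobase, log scale) of each of the 10 genes, ordered by mean level, with 1 symbol per library; colours give the groups and circles, squares and triangles replicates 1, 2 and 3. COX1 (mean 8291) lies at the top, a band of COX2, ND1, ATP6, CYTB and COX3 (means 4142 to 3090) follows, and ND6 (mean 348) lies lowest with the smallest spread.

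The spread over libraries also differed between members. The highest library exceeded the lowest 2.69-fold for ND5, the widest of the 10, 2.37-fold for COX1 and 1.55-fold for ND6, the narrowest. Over the 45 pairs of members, Pearson's r of log2 CPM across the 12 libraries had a median of 0.78 and ran from 0.24 to 0.98, with ND6 at 0.39 to 0.71 against the other 9. Without the 2 libraries that stood apart the median was 0.79 and the range -0.031 to 0.98. The members share each library's RNA and, all but ND6, 1 precursor strand, so these values describe the set.

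The effect of the inhibitor where MAVS was present was read in reconstituted tumours. Of the 10 members, 9 had lower fitted levels with the inhibitor, with a median log2 difference of -0.45, against -0.0050 over all 17885 genes. ND5, CYTB, ND2, ND4, COX1 and ND1 lay between -0.77 and -0.44, ATP6 and ND6 at -0.21 and -0.14, and COX2 and COX3 near 0. None of the 10 passed edgeR's quasi-likelihood test at an adjusted p below 0.05, nor did any gene of the table (0 of 17885, or 0%). At an unadjusted p below 0.05, 6 members were lower, where 15% of all genes were lower by that rule. limma-voom called 0 members and 0% of all genes, and DESeq2 called 4 members lower, where it called 10.1% of all genes it tested lower. With the 2 libraries that stood apart left out, the median was -0.27, with 9 of 10 negative. Leaving out replicate 3 of the inhibitor group instead gave 4 calls (COX1, CYTB, ND2 and ND5), with edgeR adjusted p of 0.00860 to 0.0389, where 15.2% of all genes were called lower in that fit.

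ND5, a proton-pumping membrane subunit of complex I, showed the largest difference of the 10 with all 12 libraries. It had 1571, 1120 and 2098 CPM in reconstituted tumours given the inhibitor, against 2819, 3017 and 2301 CPM in reconstituted controls. The groups did not overlap, although replicate 3 of the inhibitor group lay near the lowest control. The log2 difference was -0.77 ± 0.23 (SE, edgeR adjusted p = 0.0738), and -0.37 without the 2 libraries that stood apart. DESeq2 gave -0.77 with an adjusted p of 0.0120.

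COX1 had 10896, 7433 and 12568 CPM in reconstituted tumours given the inhibitor, against 13926, 15585 and 13232 CPM in reconstituted controls. All 3 inhibitor libraries lay below the controls, replicate 2 by far the most. The log2 difference was -0.47 ± 0.20 (SE, edgeR adjusted p = 0.137), and -0.18 without the 2 libraries. ND6, a membrane subunit of complex I, had 217, 155 and 139 CPM, against 187, 208 and 167 CPM. Its groups overlapped, with the highest library of all in the inhibitor group, and the log2 difference was -0.14 ± 0.15 (SE, edgeR adjusted p = 0.549). It was -0.43 without the 2 libraries, the most negative of the 10 there. That value rests on replicate 3 alone, which had the lowest ND6 level of the 12 libraries.

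CYTB, which carries the hemes of the cytochrome b subunit of complex III, had 3344, 2658 and 3864 CPM with the inhibitor, against 4734, 5378 and 4074 CPM in controls. ND2, a membrane subunit of complex I, had 1339, 948 and 1452 CPM with the inhibitor, against 1764, 1954 and 1550 CPM in controls. ND4, a further membrane subunit of that complex, had 2030, 1411 and 2093 CPM with the inhibitor, against 2400, 2948 and 2446 CPM in controls. In each of these genes all inhibitor libraries lay below all controls. Their log2 differences were -0.52, -0.49 and -0.49, with edgeR adjusted p of 0.0828, 0.0878 and 0.104, and -0.29, -0.27 and -0.31 without the 2 libraries. These genes and ND5 are those that DESeq2 called, with adjusted p of 0.0256 for CYTB, 0.0322 for ND2 and 0.0444 for ND4. ND1, which lies near the quinone site of complex I, had 3092, 2283 and 3257 CPM with the inhibitor, against 3961, 4406 and 3354 CPM in controls, the sixth member without overlap. Its log2 difference was -0.44, and -0.26 without the 2 libraries. The share of all genes that were lower with no overlap between these groups was 14.8%.

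COX2, which holds the copper site that takes electrons from cytochrome c, had 3209, 2241 and 2619 CPM with the inhibitor, against 2633, 2854 and 2680 CPM in reconstituted controls. COX3, a core subunit without a redox centre, had 2554, 1870 and 2190 CPM with the inhibitor, against 1981, 2214 and 2194 CPM in controls. ATP6, a membrane subunit of ATP synthase that forms the proton path, had 2452, 1682 and 2363 CPM with the inhibitor, against 2320, 2802 and 2389 CPM in controls. In these 3 genes the groups overlapped, and replicate 1 of the inhibitor group was above at least 1 control library in each. The log2 differences were -0.02 for COX2, 0.05 for COX3 and -0.21 for ATP6, and -0.06, 0.04 and -0.08 when the 2 libraries were left out.

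For the inhibitor effect in reconstituted tumours, the members with the more negative differences were the longer genes. Across the 10 genes, Pearson's r of gene length with the log2 difference was -0.84 for the inhibitor effect in reconstituted tumours and -0.24 in knockout tumours. The first of these was -0.35 once the 2 libraries were left out. For MAVS under the inhibitor, MAVS in controls, the interaction, the averaged inhibitor and averaged MAVS, r was -0.62, 0.67, -0.74, -0.89 and 0.28. Without the 2 libraries these were 0.74, 0.67, -0.19, -0.49 and 0.86, so the sign differed between comparisons and between fits. The points share the same libraries, and gene length goes with position on the chromosome and with complex, so the values are a description. ND4L and ATP8, the short upstream partners, had more negative values than their long partners, with log2 differences of -1.22 (edgeR adjusted p = 0.0749) and -0.79 (adjusted p = 0.0784), and -0.40 and -0.16 without the 2 libraries. Length therefore did not order all genes of the chromosome.

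**Figure D4:**
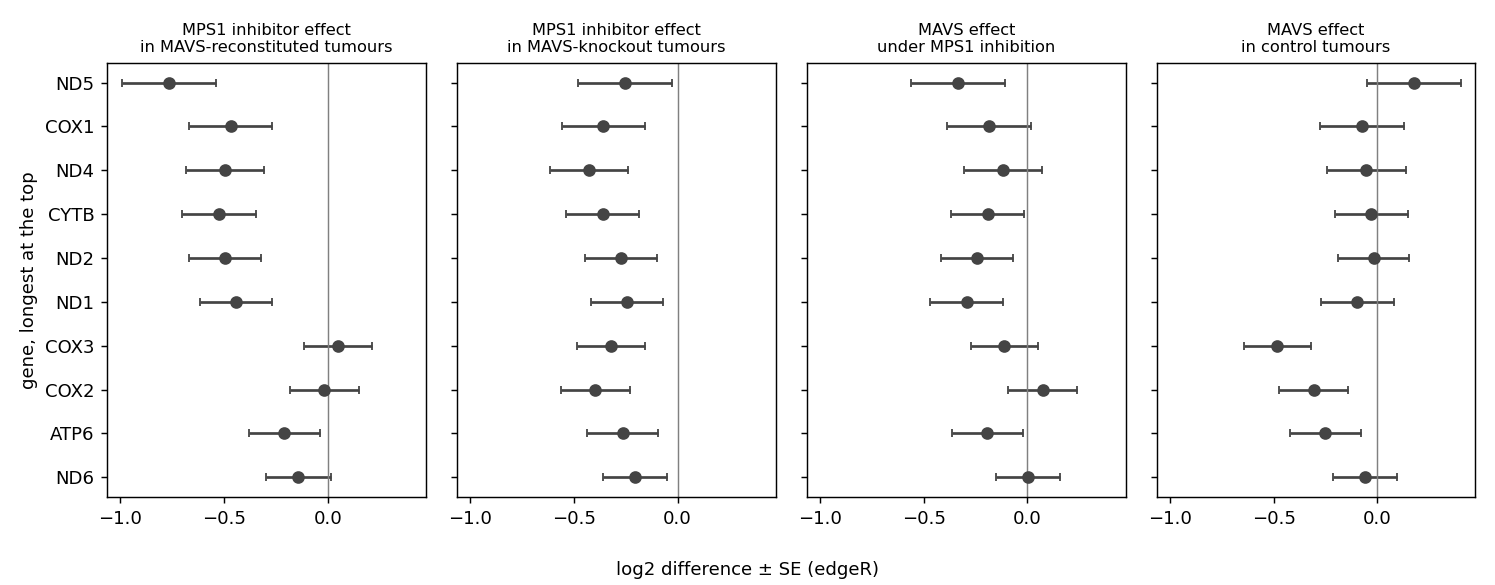
Fitted log2 difference ± SE (edgeR) of each of the 10 genes in 4 comparisons, with the longest gene at the top of each panel and the vertical line at 0; positive values are higher with the inhibitor (left 2 panels) or in reconstituted tumours (right 2 panels). In reconstituted tumours ND5 (-0.77) lies farthest below 0 and COX3 (0.05) at 0, while in knockout tumours all 10 lie between -0.43 and -0.21.

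The effect of the inhibitor without MAVS was read in knockout tumours. All 10 members had lower fitted levels with the inhibitor, within a narrow range of log2 differences from -0.43 for ND4 to -0.21 for ND6. The median was -0.30, against -0.0043 over all genes. Every adjusted p was 1 in edgeR, where 0% of all genes passed. At an unadjusted p below 0.05, 2 members were lower, where 1.05% of all genes were lower by that rule. limma-voom called 0 members and 0.00559% of all genes, and DESeq2 0 members and 0.0109%. No member was without overlap, where 4.25% of all genes were lower with no overlap.

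COX2 had the smallest p among the members there. It had 2372, 3122 and 2170 CPM in knockout tumours given the inhibitor, against 3954, 3109 and 3033 CPM in knockout controls. Replicate 2 of the inhibitor group lay just above replicates 2 and 3 of the controls. The log2 difference was -0.40 ± 0.17 (SE, edgeR unadjusted p = 0.0356, adjusted p = 1). COX1 had 12311, 13564 and 9229 CPM, against 17584, 12955 and 14428 CPM, and ND6 156, 187 and 166 CPM, against 210, 175 and 202 CPM. Both overlapped in 1 library of the inhibitor group, with log2 differences of -0.36 ± 0.20 and -0.21 ± 0.15 (SE, edgeR adjusted p = 1 for both). ND5 had 2311, 2171 and 1561 CPM, against 2718, 1941 and 2542 CPM.

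The MAVS effect under the inhibitor compared the 2 genotypes that both received it. The members' median log2 difference, reconstituted over knockout, was -0.19, with 8 of 10 negative, against 0.0096 over all genes. edgeR called 0 members, where it called 0.649% of all genes, and their adjusted p ran from 0.353 to 0.991. No member reached an unadjusted p below 0.05, where 19.7% of all genes did. limma-voom called 0 members and 0.732% of all genes, and DESeq2 0 members and 7.45%. The median was 0.0074 with the 2 libraries left out, with 5 of 10 negative, so the direction rested on these libraries.

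ND1 had the smallest p of this comparison. It had 3092, 2283 and 3257 CPM in reconstituted tumours given the inhibitor, against 3290, 3877 and 3406 CPM in knockout tumours given it. It was the 1 member without overlap, where 9.77% of all genes were lower with no overlap. The log2 difference was -0.29 ± 0.18 (SE, edgeR adjusted p = 0.353), and -0.11 without the 2 libraries. COX1 had a log2 difference of -0.18 ± 0.20 (SE, edgeR adjusted p = 0.612), which was 0.10 without them. ND6 had 0.0038 ± 0.15 (SE, adjusted p = 0.991).

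The MAVS effect in control tumours was close to 0 for most members. The median log2 difference was -0.07, with 9 of 10 negative, against 0.0030 over all genes. With each library left out in turn the median ran from -0.17 to 0.07, so its sign was not stable. edgeR called 0 members, where it called 0.14% of all genes. At an unadjusted p below 0.05, 1 member was lower, where 9.89% of all genes were lower by that rule. limma-voom called 0 members and 0.0839% of all genes, and DESeq2 0 members and 4.89%. COX3 was that member, with 1981, 2214 and 2194 CPM in reconstituted controls, against 3640, 2661 and 2619 CPM in knockout controls. Its groups did not overlap, and replicate 1 of the knockout controls stood highest. The log2 difference was -0.48 ± 0.16 (SE, edgeR adjusted p = 0.194).

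COX2 was the other member without overlap in this comparison, at 2633, 2854 and 2680 CPM in reconstituted controls against 3954, 3109 and 3033 CPM in knockout controls, where 15.5% of all genes were lower with no overlap. Replicate 1 of the knockout controls was the highest of the 12 libraries for every member but ND5 and ND6. COX1 and ND6 had log2 differences of -0.07 ± 0.20 and -0.06 ± 0.15 (SE, edgeR adjusted p = 0.876 and 0.864). ND5 had 0.18, the 1 positive value.

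Whether the inhibitor effect differed between genotypes was tested as the interaction. The members' median was -0.09, with 6 of 10 negative, and ran from -0.51 for ND5 to 0.38 for COX2. edgeR called 0 members and 0% of all genes, and no member reached an unadjusted p below 0.05, where 24.7% of all genes did. limma-voom called 0 members and 0% of all genes, and DESeq2 0 members and 9.07%. COX2 had the smallest p, with 0.38 ± 0.24 (SE, edgeR adjusted p = 0.323). COX1 had -0.11 (adjusted p = 0.835) and ND6 0.06 (adjusted p = 0.880). With the 2 libraries left out the median was 0.09, so its sign rested on them. A difference between the genotypes in the response of these genes was not detectable with these samples.

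Averaged over the genotypes, all 10 members had lower fitted levels with the inhibitor. The median log2 difference was -0.36, against -0.0036 over all genes, and -0.27 without the 2 libraries, with all 10 negative in both cases. edgeR called 0 members and 0% of all genes, with adjusted p of 0.522 to 0.597 for the members. At an unadjusted p below 0.05, 6 members were lower, where 3.7% of all genes were lower by that rule. limma-voom called 0 members and 0% of all genes, and DESeq2 0 members and 0.00363%. CYTB had the smallest p, with -0.44 ± 0.12 (SE, edgeR unadjusted p = 0.00454, adjusted p = 0.522). COX1 had -0.41 (adjusted p = 0.522) and ND6 -0.17 (adjusted p = 0.530).

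Averaged over the treatments, the reconstituted over knockout difference was negative for all 10 members, with a median of -0.12, against 0.00028 over all genes. edgeR called 0 members, where it called 1.56% of all genes. At an unadjusted p below 0.05, 1 member was lower, where 6.97% of all genes were lower by that rule. limma-voom called 0 members and 1.44% of all genes, and DESeq2 0 members and 5.9%. COX3 was that member, with -0.30 ± 0.11 (SE, edgeR adjusted p = 0.246). COX1 had -0.13 (adjusted p = 0.752) and ND6 -0.03 (adjusted p = 0.939). Once the 2 libraries were left out, 6 of the 10 members were negative and the median was -0.06.

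ND6 was also set against the other 9 members within each library, since it is read from the opposite strand. It made up 0.706%, 0.709% and 0.427% of the members' counts in reconstituted tumours given the inhibitor, against 0.487% to 0.510% in reconstituted controls. In knockout tumours it made up 0.490% to 0.604% with the inhibitor, against 0.439% to 0.525% in controls. The high values were those of the 2 libraries that stood apart, while replicate 3 of their group had the lowest value of all 12. The mean log2 ratio of ND6 to the others differed by 0.26 between reconstituted inhibitor and control tumours, and by -0.23 without the 2 libraries, so its direction turned.

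Complexes I, III, IV and V also hold nuclear-encoded subunits, of which 74 were read and all tested. In reconstituted tumours given the inhibitor 73 of 74 had higher fitted levels than in controls, with a median log2 difference of 0.59, opposite in sign to the mitochondrial members. None was called by edgeR, where 0% of all genes were, and 66 reached an unadjusted p below 0.05, where 32.6% of all genes did. In the fit that left out the 2 libraries 65 of 74 were higher, with a median of 0.18.

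By complex, the medians in reconstituted tumours were 0.58 for 36 subunits of complex I, 0.57 for 9 of complex III, 0.62 for 12 of complex IV and 0.60 for 17 of complex V. They were 0.17, 0.18, 0.24 and 0.14 in the fit without the 2 libraries. Cox7b, a small subunit of cytochrome c oxidase, had the smallest p of the 74, with a log2 difference of 0.57 ± 0.12 (SE, edgeR adjusted p = 0.0729). Ndufa3, an accessory subunit of complex I, had 58.1, 49.9 and 32.5 CPM in reconstituted tumours given the inhibitor, against 23.1, 24.6 and 28.2 CPM in controls. Its groups did not overlap, and the largest values were those of the 2 libraries that stood apart. Its log2 difference was 0.89 (edgeR adjusted p = 0.0729). The values of Cox7b and Ndufa3 were 0.35 and 0.36 when the 2 were left out. The 4 subunits of complex II, which has no mitochondrially encoded part, had a median of 0.43, with 0 called, and 0.16 without the 2 libraries.

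The other comparisons of the nuclear subunits also had 0 calls by edgeR with all 12 libraries. The median log2 difference was -0.12 for the inhibitor effect in knockout tumours, with 64 of 74 negative. It was 0.34 for the MAVS effect under the inhibitor, with 69 of 74 positive, and -0.10 with 63 of 74 negative once the 2 libraries were left out. In control tumours it was -0.40, with all 74 negative. The interaction had a median of 0.74, and 0.30 without the 2 libraries. For MAVS averaged over treatments, the fit without the 2 libraries had a median of -0.22, with all 74 negative. With all 12 libraries the 36 subunits of complex I had -0.02 there, with 20 of 36 negative. For comparison, 20 cytosolic ribosomal protein genes, which are short and nuclear-encoded, had medians of 0.57 in reconstituted and -0.11 in knockout tumours for the inhibitor effect, with 0 called. The first of these was 0.08 without the 2 libraries. In that smaller fit the MAVS effect in control tumours had a median of -0.39 for the ribosomal proteins, with 19 of 20 negative. The 74 nuclear subunits had -0.40 there.

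The summed level of the 10 mitochondrial members over that of the 74 nuclear subunits was 2.85, 2.44 and 4.61 in reconstituted tumours given the inhibitor, against 5.89, 6.47 and 5.03 in reconstituted controls. These groups did not overlap, also with replicate 3 alone in the inhibitor group. In knockout tumours the ratio was 4.72, 4.73 and 3.35 with the inhibitor, against 5.45, 4.47 and 5.18 in controls, and the groups overlapped. The ratio is not corrected for gene length.

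**Figure D5:**
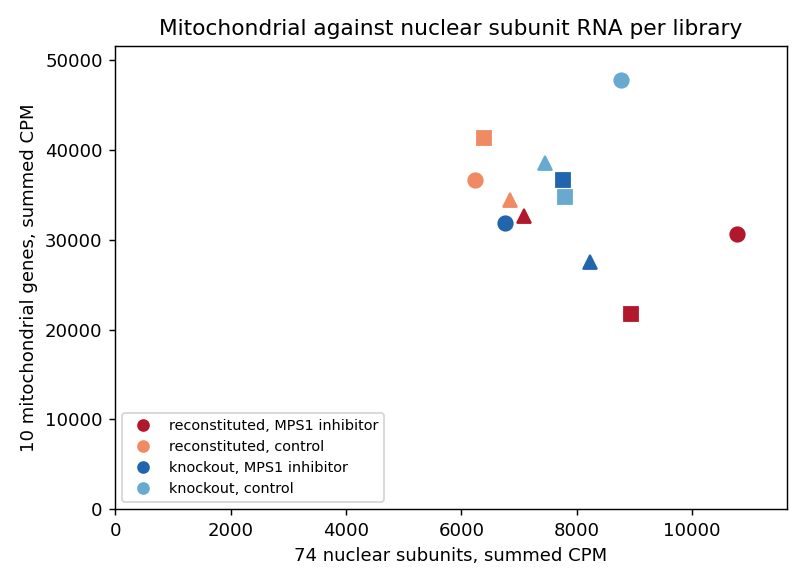
Summed CPM of the 10 mitochondrial genes (vertical) against summed CPM of 74 nuclear-encoded subunits of complexes I, III, IV and V (horizontal) in each of the 12 libraries; colours give the groups, and circles, squares and triangles are replicates 1, 2 and 3. Replicates 1 and 2 of the reconstituted tumours given the inhibitor lie at the right, at ratios of 2.85 and 2.44, and the reconstituted controls at the upper left, at 5.03 to 6.47.

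Genes that replicate, transcribe, process and translate mitochondrial RNA were read from separate lists. Of 7 genes of mitochondrial DNA replication, 6 of transcription and its termination, 14 of translation and 6 regulators of mitochondrial biogenesis, 0 were called by edgeR in any of the 7 comparisons. The medians in reconstituted tumours given the inhibitor lay between -0.10 and 0.04 on the log2 scale, against -0.0050 over all genes, and between -0.13 and -0.05 without the 2 libraries. Tefm, the elongation factor of mitochondrial transcription, had 0.30 (edgeR adjusted p = 0.105) and Polg, the catalytic subunit of the mitochondrial DNA polymerase, -0.24 (adjusted p = 0.103), which were 0.22 and -0.15 in the smaller fit. Among 7 genes used as a measure of mitochondrial mass, such as Cs and Tomm20, the median was 0.12, with 0 called, and 0.07 without the 2. Of 5 genes of mitochondrial RNA release and sensing, 3 rose in reconstituted tumours averaged over treatments, where 1.09% of all genes were called higher. These were Mavs itself (log2 difference 0.58) and the RNA sensors Ifih1 (1.23) and Ddx58 (1.09). Their edgeR adjusted p was 0.0105, 0.00595 and 0.00270. Mavs differs between the genotypes by design, so its rise says nothing further about the list. They were called in the fit without the 2 libraries too, at 0.67, 1.38 and 1.18. Ddx58 was also higher in reconstituted than in knockout tumours under the inhibitor, by 1.13 on the log2 scale (edgeR adjusted p = 0.0316). There 0.52% of all genes were called higher. Once the 2 libraries were left out the difference for Ddx58 was 1.32, but it was no longer called. Mavs had 50.0, 53.8 and 62.8 CPM in reconstituted tumours given the inhibitor and 85.0, 68.9 and 59.1 CPM in reconstituted controls, against 39.4 to 43.5 CPM and 40.5 to 45.7 CPM in the corresponding knockout groups. Every reconstituted library thus lay above every knockout library.

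Among 17 genes of mitochondrial RNA processing and decay, 1 was called in 1 comparison. Pnpt1 encodes polynucleotide phosphorylase, an exonuclease that degrades mitochondrial RNA, including double-stranded RNA. It had 51.6, 43.6 and 49.4 CPM in reconstituted tumours given the inhibitor and 59.5, 54.5 and 55.2 CPM in reconstituted controls, against 46.5, 41.6 and 42.8 CPM in knockout tumours given the inhibitor and 41.6, 40.0 and 45.2 CPM in knockout controls. The reconstituted controls were the 3 highest libraries, and the lowest reconstituted library lay within the knockout range. It rose by a log2 difference of 0.28 ± 0.06 (SE, edgeR adjusted p = 0.0491) averaged over treatments, where 1.09% of all genes were called higher. The call was lost in 17 of 20 alternative analyses, 11 of them among the 12 that left out 1 library. Over the 20, the difference stayed between 0.25 and 0.31 and the adjusted p ran from 0.00404 to 0.137. Slirp, which stabilises mitochondrial mRNAs, had the smallest p of the list for the inhibitor effect in reconstituted tumours, with 0.76 ± 0.18 (SE, edgeR adjusted p = 0.0729), and 0.42 without the 2 libraries.

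Among 10148 genes whose log2 CPM averaged 3 or more, the 8 whose level followed the members' mean log2 CPM most closely over the 12 libraries were found by Pearson's r. The closest was TrnL1, a mitochondrial tRNA gene next to ND1, at 0.89, with ND4L at 0.79 and ATP8 at 0.78. The nuclear genes among the 8 were Rbms1 (0.84), Csnk2a3 (0.79, with reads that close paralogs may share), Pcgf6 (0.79), Tent2 (0.78) and Ythdf1 (0.78). Over the 10 libraries left without the 2 that stood apart, TrnL1 had 0.88, ND4L 0.71 and ATP8 0.94, and the nuclear genes 0.53 to 0.68. The 74 nuclear subunits had r from -0.45 to 0.39 with a median of -0.25, against a median of 0.02 over all 10148 genes. All these values share the depth and scaling of the libraries.

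COX1 was set against 5 other levels over the 12 libraries to see what moved with it. Pearson's r of log2 levels was -0.36 for summed skeletal muscle markers, -0.35 for red blood cell markers, -0.43 for the nuclear subunits, -0.41 for cytosolic ribosomal proteins and 0.26 for Malat1, a nuclear-retained RNA. The permutation p was 0.251, 0.277, 0.165, 0.180 and 0.430 in that order, and the smallest Benjamini-Hochberg adjusted value over the 5 was 0.346. Spearman's rho was -0.47, -0.36, -0.43, -0.45 and 0.31, with permutation p of 0.128, 0.246, 0.161, 0.140 and 0.320 and a smallest adjusted value of 0.269. Leaving out the 2 libraries farthest from the median of each measure gave r of -0.23, -0.26, -0.41, -0.38 and 0.44. Within groups, as deviations from the group means, r was -0.09, -0.46, -0.22, -0.24 and -0.17, so that of Malat1 changed sign. None of the 5 relations passed.

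Markers of other cell types are given by group for the same libraries. Fibroblast markers summed to 1998 to 6163 CPM in reconstituted tumours given the inhibitor, against 5956 to 6245 CPM in reconstituted controls, with all 5 detected. Macrophage markers summed to 1050 to 1510 CPM in that inhibitor group, against 745 to 988 CPM in its controls, with all 5 detected. Red blood cell markers summed to 50.6 to 112 CPM, against 32.5 to 53.5 CPM. T cell markers summed to 15.5 to 24.5 CPM, against 10.3 to 14.8 CPM. Endothelial markers summed to 111 to 152 CPM, against 143 to 183 CPM, with all 4 detected. Macrophage and T cell markers did not overlap between these groups, while fibroblast, red blood cell and endothelial markers did. The epithelial markers were also higher without overlap, at 6915 to 10107 CPM against 6378 to 6799 CPM. The share of all genes higher without overlap is not given here, so these sums are a description. All 4 endothelial markers had negative log2 differences for the inhibitor, with a median of -0.63, and -0.83 without the 2 libraries. With all 12 libraries 3 of these markers had an unadjusted p below 0.05 in edgeR, where 32.6% of all genes did, and 0 were called. Cdh5, the cadherin of endothelial junctions, had -0.68 ± 0.10 (SE, edgeR adjusted p = 0.0729). In knockout tumours the first 5 sums and the epithelial sum overlapped between inhibitor and control libraries. The part of these cell types in the levels of the mitochondrial genes was not tested.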

How the data were processed

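The counts the authors deposited are whole numbers per gene for each library, and nothing in their values points to a normalization. Per the labels' protocols, stranded libraries were made from polyadenylated RNA after a DNase step. Per the submitters' processing notes, the tools were Trimmomatic, HISAT2 and StringTie and the build GRCm38 (mm10), with their versions and roles not given in the sources used here. Groups came from the sample labels. The 12 libraries were fitted together, with 4 group means and without covariates, in edgeR 4.0.16 (R 4.3.3) after filterByExpr and TMM scaling (factors 0.920 to 1.03). The quasi-likelihood F-test gave p-values, adjusted by Benjamini-Hochberg over all 17885 genes of each of 7 comparisons and called below 0.05. The standard error (SE) is the absolute log2 difference divided by the root of F. Alternatives included DESeq2 1.42.0 and the voom method of limma 3.58.1, other scalings and filters, a replicate block and each library left out. CPM used TMM-scaled totals. Permutation tests drew 100000 permutations and were two-sided. Gene IDs were matched to RefSeq GRCm38.p6 for positions and GENCODE M21 for strand and sequence.

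The members and the lists were chosen with earlier results of these data known. For each comparison COX1, ND6, the member with the smallest p and every called member were given in full, and the lists' genes by call or smallest p. Other genes with values, such as Ndufa3 and the members' partners, were named after their values were seen. On simulated counts of 17885 genes, edgeR was run for the inhibitor effect in reconstituted tumours. It called 65 of 100 genes shifted by 1 on the log2 scale, 94 of 100 shifted by 2 and 8 unshifted genes. The calling of smaller shifts, such as the members' differences there of -0.77 to 0.05, was not tested. Whether these rates hold for the deposited counts, which include the libraries that stood apart, was also not tested.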

Additional observations from a re-analysis of the deposited data

How the results depend on the processing

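The count of members called stayed at 0 in 6 of the 7 comparisons under every alternative run. The inhibitor effect in reconstituted tumours was the exception, with 4 members under DESeq2 and 0 to 4 when each library was left out. The 4 came without replicate 3 of the reconstituted inhibitor group (COX1, CYTB, ND2 and ND5), where 15.2% of all genes were called lower, and the cause was not tested. With the replicate number as a block 0 members were called in every comparison, and the medians were -0.46 in reconstituted and -0.29 in knockout tumours for the inhibitor. The deviations of samples of the same number correlated at r -0.113 to 0.307, above 0.1 in 9 of 18 pairs but not in every pair, so the numbers were not taken as pairs.

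Without the 2 libraries that stood apart the lone inhibitor library of reconstituted tumours was assumed to vary like the other groups. The log2 ratio of shares was then -0.24 for the inhibitor in reconstituted tumours, -0.0020 for MAVS under the inhibitor and 0.0608 for the interaction. COX1 turned to 0.10, 0.18 and 0.0151 for MAVS under the inhibitor, the interaction and averaged MAVS. ND6 over the others became -0.23 for the inhibitor in reconstituted tumours, -0.32 for MAVS under the inhibitor, -0.35 for the interaction, -0.0512 for the averaged inhibitor and -0.14 for averaged MAVS. Leaving out each library in turn gave 0.14 to 0.50, 0.0466 to 0.41 and 0.0102 to 0.38 for the first 3 of these. ND6 for MAVS under the inhibitor, 0.0038 as fitted, turned to -0.000425 with RLE factors, -0.0533 with totals only, -0.00531 with no filter, -0.00408 with DESeq2, -0.0179 with limma-voom, -0.0121 with the replicate block, -0.000978 with 6 libraries and -0.28 without the 2. ND6 for the interaction turned to -0.0341 with totals only and -0.22 without the 2. With each library left out, ND6 ran from -0.21 to 0.12 for MAVS under the inhibitor, -0.15 to 0.0192 in controls, -0.15 to 0.18 for the interaction and -0.13 to 0.0317 averaged. COX1 ran from -0.36 to 0.00365, -0.17 to 0.0577 and -0.29 to 0.0767 in the first 3. The relation of COX1 to Malat1 within groups was -0.17.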
